A study of Mus musculus with 2 samples.

Results

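The M-band is the line in the middle of the muscle sarcomere where the myosin-containing thick filaments are tied to each other and to titin. Myomesins form its crosslinks, Obsl1 joins them to the M-band end of titin, and myosin binding protein C sits on the thick filament on either side of it, where it tunes how myosin heads reach actin. Smyd1 and Unc45b act on thick filament assembly, the first as a muscle-restricted lysine methyltransferase and the second as a chaperone that folds myosin together with Hsp90. The genes described here are the myomesins Myom1, Myom2 and Myom3, the myosin binding proteins Mybpc1, Mybpc2 and Mybpc3, Obsl1, Smyd1 and Unc45b. They were chosen by name, 9 of the 55536 annotated genes measured.

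Total RNA came from the hearts of B6CASTF1/J mice with no listed treatment, an F1 cross between the B6 laboratory strain and the wild-derived CAST strain, all male and 10 days old. There was 1 group of 2 libraries, called replicate 1 and replicate 2, each made from 300 ng of RNA with reduced ribosomal RNA and ERCC control RNAs. The labels number the males separately but give a single donor record for both, so the spread given is that between these samples and may be partly technical. With 1 group of 2 libraries, no genotype, treatment or age was compared and no test was possible. The total expected count over annotated genes was 38627658 in replicate 1 and 37694435 in replicate 2, and 3 counts, the limit that a count of 0 allows, equalled 0.0777 and 0.0796 CPM, or counts scaled to the library total. Levels are in TPM, which is scaled by transcript length and library, and come from a quantification made from alignments unless the read-based quantification, the other of the 2 deposited, is named.

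Defining markers matched the labelled tissue. All 6 cardiomyocyte markers were detected, with a summed level of 22441 TPM in replicate 1 and 20509 TPM in replicate 2, of which Myh6 was the highest. Of 14 skeletal muscle markers, Tnni2 alone reached 1 TPM in both libraries, the list summed to 3.70 and 2.99 TPM, and Myh4, Tnnc2, Myod1 and Pax7 had 0 counts in both. The libraries differed in other cell types: the 6 atrial markers, led by Nppa, summed to 1522 TPM in replicate 1 and 273 TPM in replicate 2, and the 5 brown adipocyte markers, led by Ucp1, to 420 and 31.2 TPM.

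A gene was counted as detected at 1 TPM or more in both libraries, which held for 7 of the 9 genes. The same was true of 22.9% of all annotated genes and 52.4% of protein-coding genes. The median level of all 9 genes, detected or not, was 72.2 TPM in replicate 1 and 66.4 TPM in replicate 2. The median over all detected genes, a set that leaves out genes below 1 TPM, was 10.5 and 9.11 TPM. Together the 9 genes held 0.187% and 0.186% of all TPM, and 0.585% and 0.635% of all counts. From highest to lowest the order was Mybpc3, Myom1, Myom2, Smyd1, Obsl1, Unc45b, Mybpc2, Myom3 and Mybpc1. The ranges of neighbours over the libraries did not overlap except for Obsl1 and Unc45b. In the read-based quantification Obsl1 and Unc45b were apart and Myom1 and Myom2 overlapped instead.

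**Figure D1:**
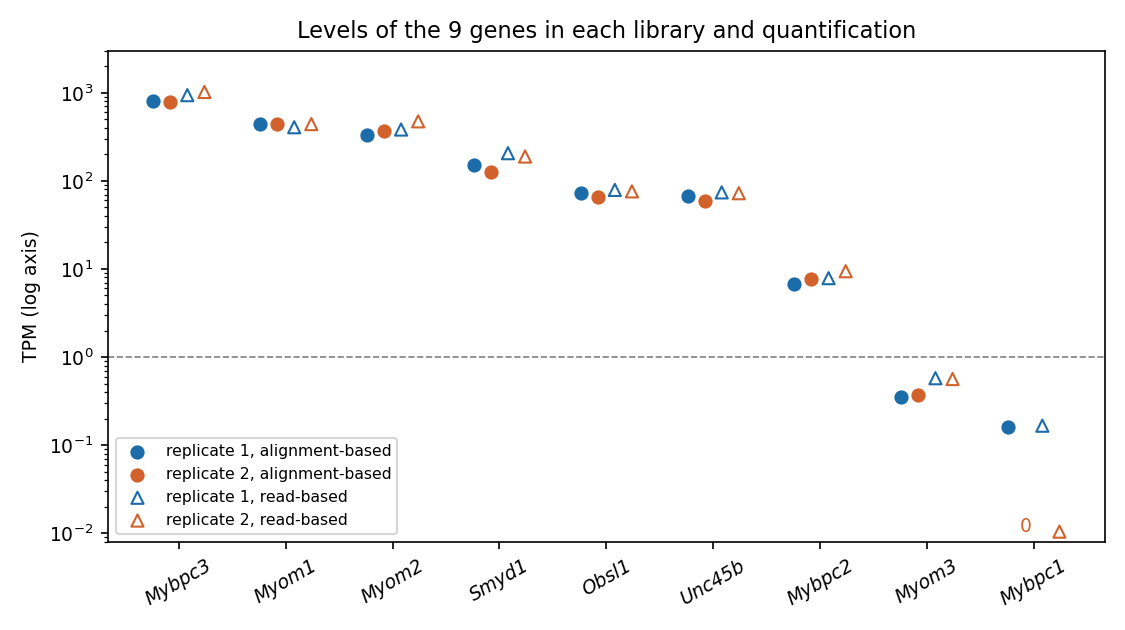
TPM on a log axis (y) of the 9 genes (x, in order of mean level), with filled circles for the alignment-based and open triangles for the read-based quantification, blue for replicate 1 and orange for replicate 2. The dashed line marks 1 TPM, "0" marks a gene listed at 0, and 7 genes lie above the line in every library and quantification while Myom3 and Mybpc1 lie below it.

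Mybpc3, at chr2:91118144-91136516 on the plus strand of mm10 (the build of all coordinates here), encodes cardiac myosin binding protein C, whose gene is a frequent site of mutation in human hypertrophic cardiomyopathy. It had 804 TPM in replicate 1 and 793 TPM in replicate 2, a mean of 798 ± 7.32 TPM (SD, n = 2), behind 98714 and 103260 expected counts. That placed it at rank 50 among protein-coding genes. Its skeletal paralogs were far lower. Mybpc2, which encodes the fast skeletal form (chr7:44501699-44524656, minus strand), had 6.81 and 7.63 TPM from 723 and 858 counts. Mybpc1, the slow skeletal form (chr10:88518279-88605152, minus strand), had 4 counts in replicate 1 and 0 in replicate 2, or 0.16 TPM and 0 TPM, so replicate 2 allows a level of up to 0.0796 CPM by counting error alone. Mybpc3 thus made up 99.1% of the TPM of the 3 paralogs in replicate 1 and 99.0% in replicate 2, and was 118-fold above Mybpc2 in replicate 1 and 104-fold in replicate 2.

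Mybpc2 was above every skeletal muscle marker on the list, of which Tnni2, the highest, had 1.81 TPM in replicate 1 and 1.23 TPM in replicate 2. The transcript Mybpc2-201 took all of its reads in both quantifications. No stretch of 31 bases of Mybpc2-201 occurs in Mybpc3 or another of the 9 genes. It does share 3.77% of its 31-base words with Gm44646, a gene on the opposite strand that had 2 counts in replicate 1 and 7 in replicate 2.

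The myomesins were divided between a pair of genes. Myom1 (chr17:71002633-71126856, plus strand), which encodes the myomesin present in all striated muscle, had 444 TPM in replicate 1 and 437 TPM in replicate 2, a mean of 441 ± 5.26 TPM (SD, n = 2). Myom2 (chr8:15057653-15133541, plus strand), which encodes M-protein, known from fast skeletal fibres and the heart, had 328 and 372 TPM, a mean of 350 ± 30.5 TPM (SD, n = 2). Myom3 (chr4:135759715-135815564, plus strand), the skeletal myomesin 3, had 0.35 and 0.37 TPM from 24 and 31 counts. Myom1 held 57.5% of the TPM of the family in replicate 1 and 54.0% in replicate 2, Myom2 held 42.5% and 45.9%, and Myom3 held 0.0453% and 0.0458%. In the read-based quantification Myom1 held 51.5% and 48.2%. Myom1 was therefore above Myom2 in both libraries by alignment, 1.35-fold in replicate 1 and 1.18-fold in replicate 2, whereas by reads it was 1.06-fold above in replicate 1 and at 0.930 of Myom2 in replicate 2. The gene level of Myom1 includes Myom1-208, a short transcript not annotated as coding, with 146 and 144 TPM by alignment and 10.8 and 10.5 TPM by reads. The main coding transcripts had the other order by alignment. Myom1-203 had 257 and 250 TPM, and Myom2-201 had 315 and 349 TPM. The order of the genes by alignment thus depends on Myom1-208.

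Of the assembly factors, Smyd1 (chr6:71213940-71322233, minus strand) had 151 TPM in replicate 1 and 127 TPM in replicate 2, a mean of 139 ± 16.5 TPM (SD, n = 2). Unc45b (chr11:82910550-82943403, plus strand) had 67.2 and 59.7 TPM, a mean of 63.5 ± 5.30 TPM (SD, n = 2). Smyd1 was 2.24-fold and 2.13-fold above Unc45b. The paralog Unc45a, expressed in most tissues, was lower at 7.49 and 6.44 TPM. Obsl1 (chr1:75479310-75506452, minus strand) had 72.2 and 66.4 TPM, a mean of 69.3 ± 4.12 TPM (SD, n = 2).

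The abundant genes were also set against each other within each library. Mybpc3 was 1.81-fold above Myom1 in replicate 1 and 1.82-fold in replicate 2, and by reads 2.31-fold and 2.32-fold. This ratio differed little between the libraries and more between the quantifications. Myh6, which encodes the alpha myosin heavy chain, stood 10.7-fold above Mybpc3 in replicate 1 and 10.5-fold in replicate 2, and by reads 8.85-fold and 8.55-fold. Myom1 was at 0.470 and 0.397 of the level of Ttn, titin, whose M-band end the myomesins bind.

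Differences between the libraries were read as the log2 ratio of replicate 1 over replicate 2 after TMM scaling, with an exact 95% interval that covers counting error only. To count as over 2-fold, a gene needed 50 counts on average, a fold beyond 2 and an interval that left out 1. None of the 7 genes with that count was over 2-fold, and 1.79% of the 13211 genes tested in this way were. The interval left out 1 for 5 of the 7, all lower in replicate 1, and for none that was higher in replicate 1. Over all genes tested, it left out 1 with a lower value in replicate 1 for 22.3% and a higher value for 20.6%. With scaling by total count, which moved the median ratio of all genes from -0.01 to 0.10, the 7 genes divided into 4 lower and 2 higher, and all genes into 11.7% and 38.6%. On the alignment-based TPM scale, by contrast, Mybpc3, Myom1 and Unc45b were higher in replicate 1. So was the median of all detected genes, at 10.5 TPM against 9.11 TPM in replicate 2. By reads, Mybpc3 had 940 TPM in replicate 1 and 1021 TPM in replicate 2, and Myom1 had 406 and 441 TPM. Unc45b, at 74.0 and 72.4 TPM, stayed higher in replicate 1 by reads. The direction of these small differences thus depended on the scale and, for Mybpc3 and Myom1, on the quantification. Myom2 and Mybpc2 were lower in replicate 1 on both scales.

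Among the 7 genes with 50 counts, the lowest ratios belonged to Myom2, whose log2 ratio was -0.39 (interval -0.41 to -0.37), and Mybpc2, at -0.39 (-0.53 to -0.24). Of all genes tested, 86.0% lay closer to 0 than Myom2. Mybpc3 had a log2 ratio of -0.21 (-0.22 to -0.19) and Myom1 of -0.20 (-0.21 to -0.18), so these abundant genes differed by nearly the same amount. Unc45b was at -0.06 (-0.11 to -0.01), a direction that turned to 0.04 (-0.01 to 0.09) with scaling by total count. With scaling by the ERCC controls it was 0.0067 (-0.04 to 0.06), and both of these intervals included 1 as a ratio. The intervals of Smyd1, at 0.01 (-0.02 to 0.04), and Obsl1, at -0.03 (-0.08 to 0.01), included 1 as a ratio. Myom3, at 24 and 31 counts, had a ratio of -0.50 with an interval from -1.34 to 0.31, so a difference was not detectable at this depth. The median ratio of the 7 genes was -0.20 and that of all genes -0.01, and the median size of the ratio was 0.20 and 0.14.

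The marker lists differed between the libraries in both directions. The ventricular markers, led by Myl2, had a median log2 ratio of -0.20 (3 of 3 detected, 3 lower in replicate 1), and the cardiomyocyte markers of -0.12 (range -0.19 to 0.05). The atrial markers had a median of 2.00 and the brown adipocyte markers of 4.95, both higher in replicate 1 for every gene on the list. The fibroblast markers, led by Col3a1 (6 of 6 detected, summed level 1881 TPM in replicate 1 and 1184 TPM in replicate 2), had a median of 0.46, the smooth muscle markers, led by Acta2 (4 of 4, 310 and 195 TPM), of 0.64, and the endothelial markers, led by Cdh5 (4 of 4, 325 and 259 TPM), of 0.09. The part of these differences in the ratios of the M-band and binding protein genes was not tested. In bulk tissue, fewer cells of a type and less RNA per cell cannot be told apart.

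**Figure D2:**
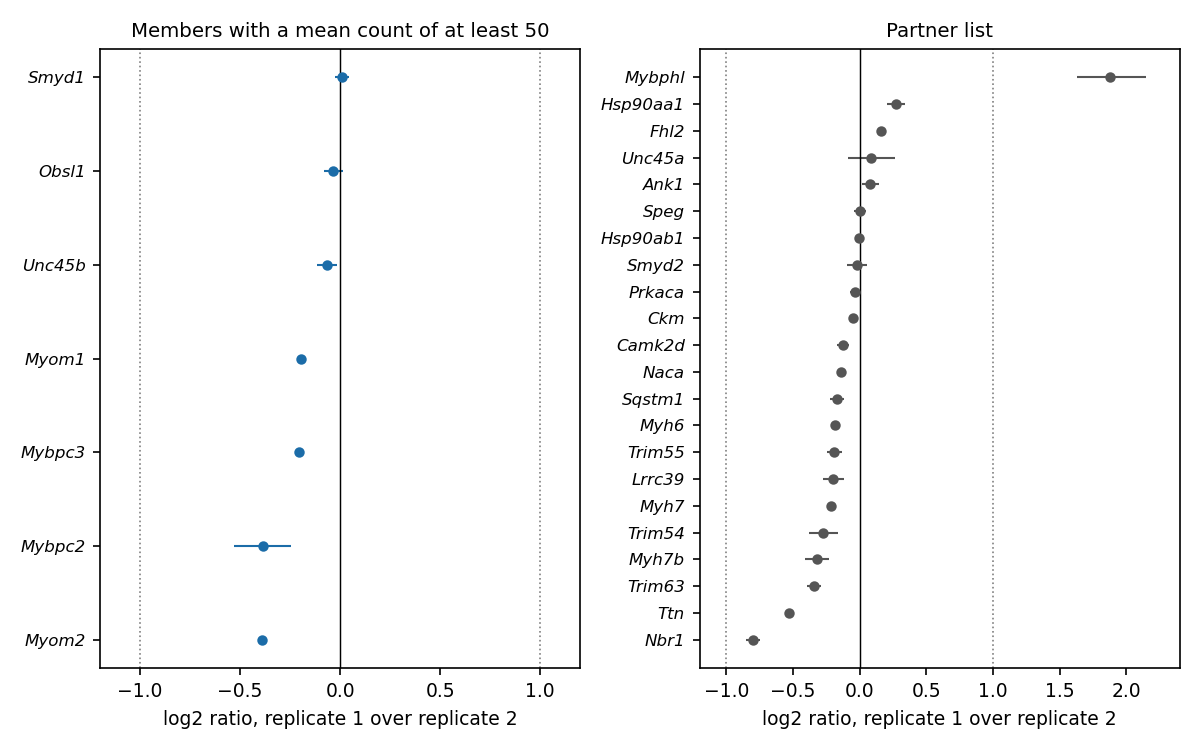
Log2 ratio of replicate 1 over replicate 2 (x) with its exact 95% counting interval as a bar, for the 7 genes with a mean count of at least 50 (left) and for 22 genes of the M-band and thick filament partner list (right). Dotted lines mark 2-fold; all 7 lie between -0.39 and 0.01, and of the partners only Mybphl lies beyond 2-fold.

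A list of 23 partners was set beside the genes: titin, myosin heavy chains, the other members of the binding protein family, M-band kinases, ligases and adaptors, and chaperones. Of these, 22 were detected, 4 had an interval leaving out 1 with a higher value in replicate 1, 13 with a lower one, and the median ratio was -0.13. Over all genes tested, 20.6% were higher and 22.3% lower by interval. These values are after TMM scaling, and with total count the shares of all genes were 38.6% and 11.7%. Mybphl, a short relative of the binding proteins known from the atrium, had 17.5 TPM in replicate 1 and 4.06 TPM in replicate 2, a log2 ratio of 1.88 (1.63 to 2.15). It is also 1 of the 6 atrial markers, all of which were over 2-fold higher in replicate 1. Mybph, its skeletal relative, had 0 counts in both libraries.

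Titin itself was lower in replicate 1 on both scales. Ttn had 944 TPM in replicate 1 and 1101 TPM in replicate 2, with a log2 ratio of -0.53. Lrrc39, which encodes the M-band protein myomasp, had 30.7 and 30.1 TPM and a ratio of -0.20, as Myom1 had after rounding. Speg, which encodes a striated muscle kinase, had 43.3 and 38.2 TPM and a ratio of 0.00. The myosin heavy chains Myh6, at 8595 and 8333 TPM, and Myh7, at 769 and 734 TPM, had ratios of -0.19 and -0.22. Both were close to that of Mybpc3 and likewise below 0, although the alignment-based TPM was higher in replicate 1. The read-based TPM was lower in replicate 1, at 8317 and 8727 TPM for Myh6 and 1800 and 1870 TPM for Myh7. Myh7 was above Mybpc3 by reads and below it by alignment.

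Chaperone genes that work with Unc45b or Smyd1 were also on the list. Hsp90aa1, the Hsp90 form that partners Unc45b in zebrafish muscle, had 76.0 TPM in replicate 1 and 57.0 TPM in replicate 2, with a log2 ratio of 0.27. Hsp90ab1, the constitutive form, had 418 and 364 TPM and a ratio of -0.01, with an interval that included 1. Naca, whose muscle form binds Smyd1, had 267 and 237 TPM and a ratio of -0.14. These values are of the whole gene, and its muscle form was not read apart.

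**Figure D3:**
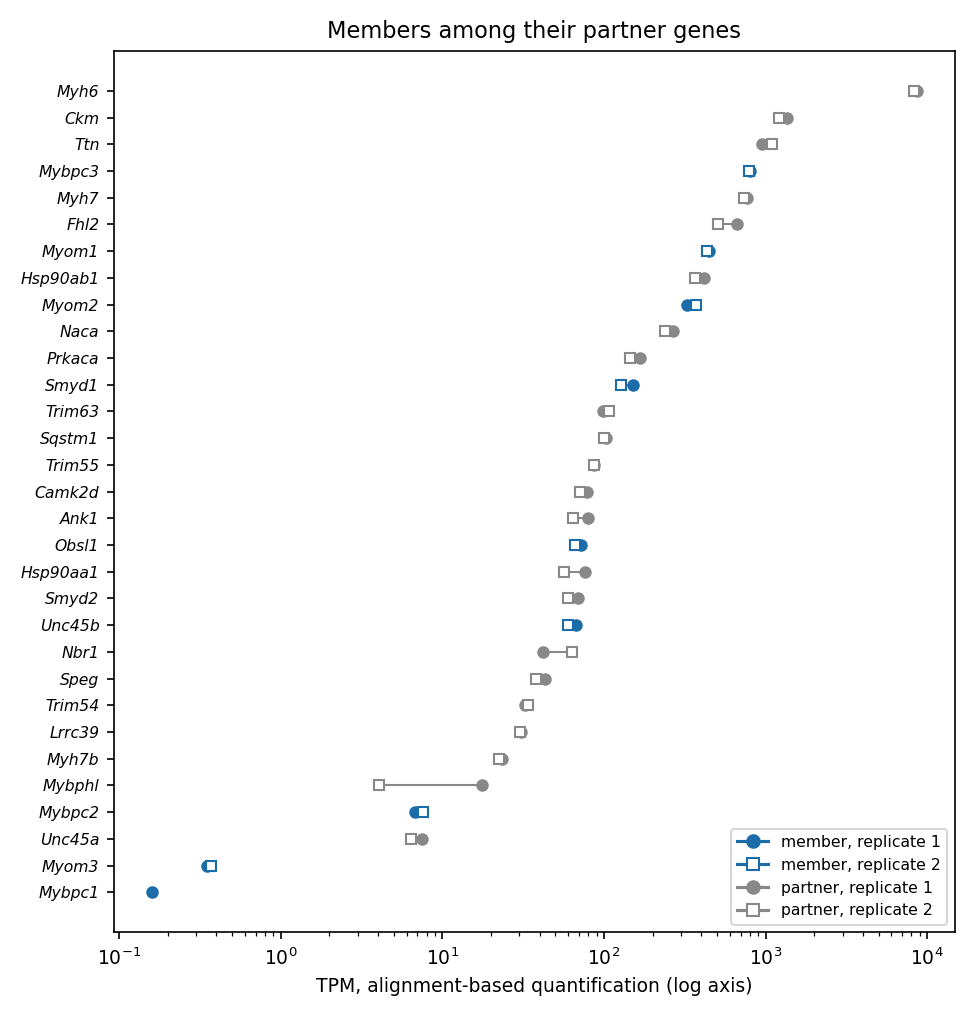
Level in TPM on a log axis (x, alignment-based) of the 9 genes (blue) and their 22 detected partners (grey), with a filled circle for replicate 1 and an open square for replicate 2. Mybpc3 lies among the heavy chains and titin, below Myh6 by 10.7-fold in replicate 1 and 10.5-fold in replicate 2. Mybphl has a wider gap between the libraries than any other partner. Mybpc1, listed at 0 in replicate 2, has only its replicate 1 point.

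Transcripts of the 6 most abundant genes were resolved to different degrees. Shares are of the TPM of the gene, averaged over the libraries unless both are named, by alignment and then by reads. Mybpc3-203 held 98.4% of Mybpc3 in both quantifications (SD 0.0458 and 0.166, n = 2), and Myom2-201, the only coding transcript of its gene, held 94.8% and 92.3%. These genes therefore had a single main transcript whichever way reads were assigned. Every annotated transcript of Mybpc3, Mybpc2 and Smyd1 is coding. Over the whole annotation, 9338 detected protein-coding genes also have a transcript of another biotype, and in these the coding transcripts held a median of 86.2% of the TPM in replicate 1 and 84.7% in replicate 2. In Myom3, which was not detected, they held 8.82% and 5.41%. Myom3-203, a transcript with a retained intron, held 81.1% by alignment and 71.2% by reads. Myom3-202 held 23.5% in replicate 1 and 0% in replicate 2 by alignment, and 41.3% and 0% by reads, so its share rested on 1.80 and 3.30 counts of replicate 1. The 4 counts of Mybpc1 were too few to assign: Mybpc1-204 and Mybpc1-203, both with retained introns, took 53.3% and 40.0% in replicate 1 by alignment. By reads Mybpc1-203 led in replicate 1 at 55.7%, with Mybpc1-201 at 23.1%, and the single estimated count of replicate 2 fell on Mybpc1-201.

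**Figure D4:**
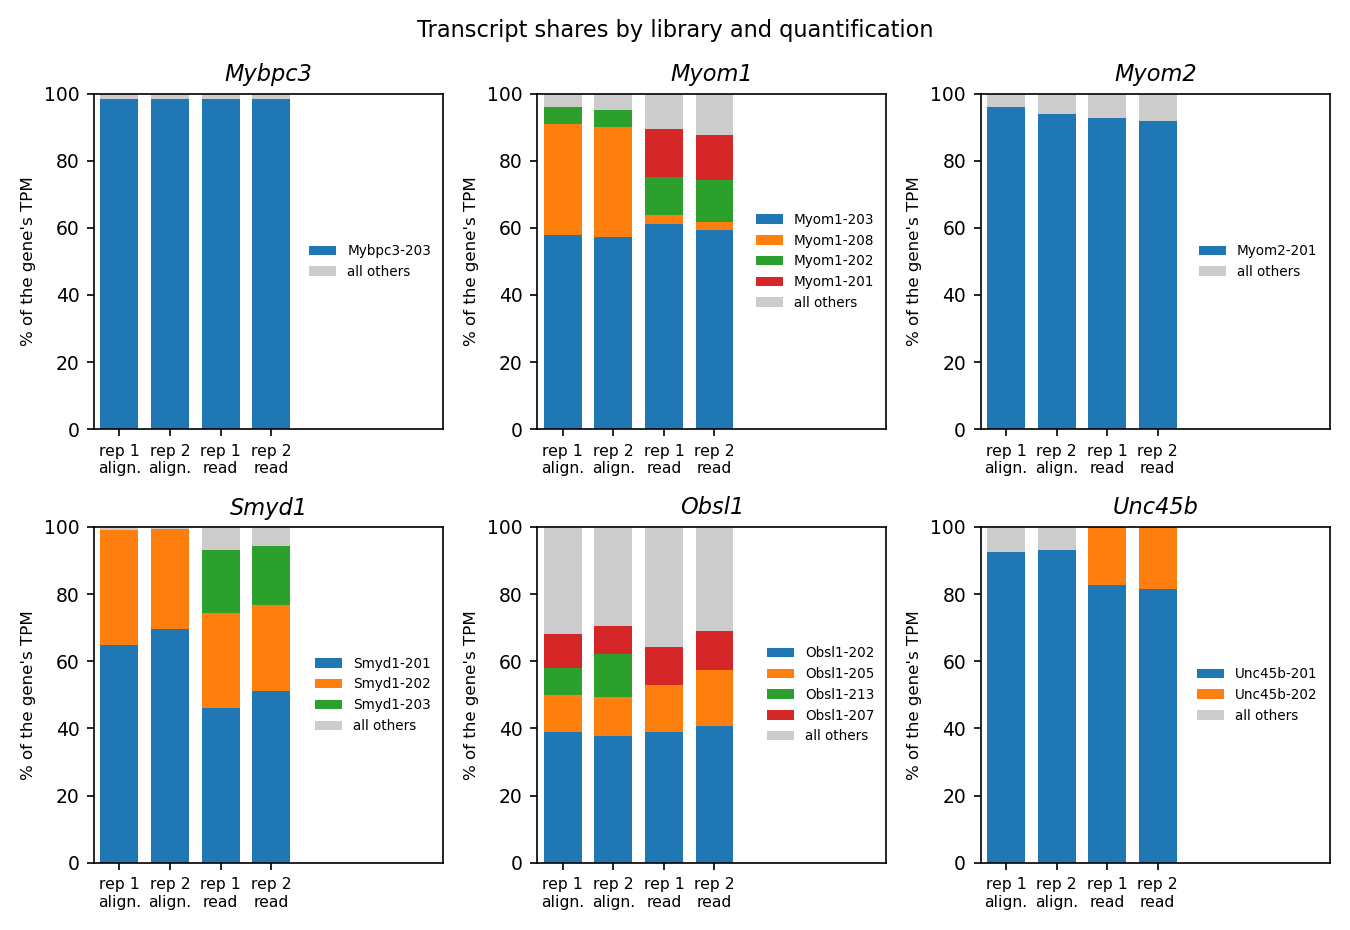
Share of the gene's TPM (y, percent) held by each named transcript for 6 genes, with bars for replicate 1 and replicate 2 in the alignment-based (align.) and then the read-based (read) quantification. Mybpc3 and Myom2 are filled by 1 transcript throughout, while the make-up of Myom1, Smyd1 and Unc45b differs more between quantifications than between libraries.

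Mybpc3 carries a small alternative splice site, shown because both forms are coding and differ by whole codons. In Mybpc3-203 the exon at chr2:91122636-91122647 has 12 bases, and in Mybpc3-201 it starts 3 bases later, at chr2:91122639-91122647. The sequences are from the GENCODE M21 transcripts, with the exon in capitals between 15 bases of its neighbours.
Mybpc3-203: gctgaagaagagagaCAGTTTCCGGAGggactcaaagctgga
Mybpc3-201: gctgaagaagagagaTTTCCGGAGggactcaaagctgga
The shorter form made up 0.377% of the transcripts that hold either form in replicate 1 and 0.499% in replicate 2, and 0.391% and 0.532% by reads. The longer form, with 1 more codon, was nearly the only one in both libraries.

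Myom1 has an exon of 294 bases, or 98 codons, at chr17:71082203-71082496 that only Myom1-202 holds among its full-length coding transcripts, where it is exon 18 of 38. It adds the elastic EH segment, which is known from the embryonic heart and is largely lost from mouse heart around birth. It is shown in capitals between 3 bases of its neighbours.
Myom1-202: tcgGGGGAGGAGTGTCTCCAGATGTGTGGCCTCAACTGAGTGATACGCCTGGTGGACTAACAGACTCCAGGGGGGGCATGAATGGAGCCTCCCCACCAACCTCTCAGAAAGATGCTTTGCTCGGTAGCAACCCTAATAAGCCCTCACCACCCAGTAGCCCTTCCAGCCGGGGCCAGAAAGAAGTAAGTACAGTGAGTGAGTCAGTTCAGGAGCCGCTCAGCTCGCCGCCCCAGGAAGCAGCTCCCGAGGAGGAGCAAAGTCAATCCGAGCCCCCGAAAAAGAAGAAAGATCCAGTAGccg
Of the full-length Myom1 transcripts, 8.23% held it in replicate 1 and 7.87% in replicate 2, a mean of 8.05% ± 0.251 (SD, n = 2). By reads the share was 13.0% and 14.6%, a mean of 13.8% ± 1.14 (SD, n = 2). The quantifications thus differed by more than the libraries did, and in both the exon was present in a minority of transcripts. The deposited posterior mean count of Myom1-202 was 3732 with a posterior SD of 242 in replicate 1, and 3718 with a posterior SD of 220 in replicate 2. With Myom1-205, a transcript that runs 1231 bases into the intron after this exon, the share over all transcripts across it was 12.2% and 12.8%, and by reads 16.0% and 18.1%.

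Near its end, Myom1 offers a choice between a pair of exons of equal length, shown because the quantifications disagreed on it. Both have 23 bases and both are coding. The exon at chr17:71120794-71120816 is in Myom1-201, and the exon at chr17:71121126-71121148, after a gap of 309 bases, is in Myom1-203, Myom1-202 and Myom1-208. The exon is in capitals between 15 bases of its neighbours, and 6 of the 23 bases are the same.
Myom1-201: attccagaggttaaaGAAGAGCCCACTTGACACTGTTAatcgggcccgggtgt
Myom1-203: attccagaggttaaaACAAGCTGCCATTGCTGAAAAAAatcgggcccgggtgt
By alignment Myom1-201 was listed at 0 in both libraries, although its posterior mean count was 381 with an SD of 241 in replicate 1 and 191 with an SD of 130 in replicate 2. By reads it had 8483 and 8473 estimated counts and 14.0% of the TPM of the gene. Among full-length transcripts, the exon of Myom1-201 was in 16.5% and 15.9% by reads.

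Myom1-208 also differed. This transcript of 941 bases is not annotated as coding and lies over the last exons of the gene, with 91.4% of its bases within exons of Myom1-203. By alignment it held 33.0% of the TPM of Myom1 from 3729 counts in replicate 1 and 3879 in replicate 2. By reads it held 2.51% from 189 and 178 counts. As a share of expected counts, which is not scaled by length, it held 7.48% of the gene by alignment. The dominant transcript was Myom1-203 in either quantification, at 57.5% and 60.2%, and Myom1-202 held 5.04% and 11.9%. The share of Myom1 in transcripts annotated as coding was 63.1% in replicate 1 and 62.1% in replicate 2 by alignment, and 93.0% and 91.7% by reads. Among them, Myom1-209 held 0.0608% and 0.0275% by alignment, and 6.21% and 6.33% by reads. It shares 207 bases with Myl12a, a gene on the opposite strand that had 8949 counts in replicate 1 and 8585 in replicate 2.

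Smyd1 was split between transcripts with and without an exon of 39 bases, or 13 codons, at chr6:71235343-71235381. It is exon 5 of 10 in Smyd1-201 and is absent from Smyd1-202. It is shown in capitals between 15 bases of its neighbours, in the direction of transcription.
Smyd1-201: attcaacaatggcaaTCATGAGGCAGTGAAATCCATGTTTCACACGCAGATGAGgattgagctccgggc
The exon was in 65.5% of transcripts across it in replicate 1 and 70.0% in replicate 2, a mean of 67.7% ± 3.22 (SD, n = 2). By reads the shares were 69.8% and 73.0%, so the form with the exon was the more abundant in both libraries and both quantifications. Smyd1-203 begins at a separate first exon far upstream, at chr6:71321915-71322233, and here the quantifications were apart. By alignment it held 0.0365% of Smyd1, with 6.38 counts in replicate 1 and 0 in replicate 2. By reads it held 18.1%, with 1943 and 1602 counts. Smyd1-201 held 67.2% by alignment and 48.7% by reads, and Smyd1-202 held 32.0% and 26.8%.

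Unc45b showed a like difference at Unc45b-202. This transcript has its own first exon, and another exon runs 6 bases, or 2 codons, further than in Unc45b-201, at chr11:82929074-82929079. Unc45b-205, of 3555 bases against 3549 in Unc45b-201, has no 31-base word of its own. It was listed at 0 in both quantifications, and the longer exon is thus not a mark of Unc45b-202 alone. The added bases are in capitals between 15 bases on either side.
Unc45b-202: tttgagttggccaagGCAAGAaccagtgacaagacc
By alignment Unc45b-202 was listed at 0 in both libraries and Unc45b-201 held 92.9%. By reads Unc45b-202 held 17.8%, with 1408 estimated counts in replicate 1 and 1439 in replicate 2, and Unc45b-201 held 82.2%. Of the 31-base words of Unc45b-201, 9.95% occur in genes on the opposite strand, Unc45bos with 20 and 28 counts and Slfn5os with 3 and 1.

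Obsl1 was the most divided of the genes, with 13 annotated transcripts. Obsl1-202, the full-length transcript of 20 exons, held 38.3% of the TPM by alignment and 39.8% by reads. As a share of expected counts it held 67.1%. Obsl1-205 held 11.4% and 15.4%, and Obsl1-207, not annotated as coding, held 9.35% and 11.4%. Obsl1-213, of 440 bases and also not annotated as coding, held 10.3% by alignment from 59.5 counts in replicate 1 and 91.8 in replicate 2, and was listed at 0 by reads. Of coding transcripts alone, Obsl1-202 made up 63.5% and 62.5% by alignment, and 57.1% and 57.6% by reads. Obsl1-201, which ends early, made up 9.36% and 8.48%.

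Promoters were read for the 8 genes that RefSeq's table for GRCm38.p6 holds, from 250 bases before to 50 bases after the start, and searched on both strands. The MEF2 motif, bound by a factor of muscle genes, had a match in 2 of the 8, Mybpc3 and Myom3, and in 3.19% of the 32851 promoters of that length. The CArG motif, bound by serum response factor, had a match in 1 of the 8, Myom1, and in 1.63% of all. These 3 promoters are shown, with the match in capitals. The MEF2 match begins 90 bases before the start in Mybpc3 and 35 bases before it in Myom3, and the CArG match 99 bases before it in Myom1.
Mybpc3: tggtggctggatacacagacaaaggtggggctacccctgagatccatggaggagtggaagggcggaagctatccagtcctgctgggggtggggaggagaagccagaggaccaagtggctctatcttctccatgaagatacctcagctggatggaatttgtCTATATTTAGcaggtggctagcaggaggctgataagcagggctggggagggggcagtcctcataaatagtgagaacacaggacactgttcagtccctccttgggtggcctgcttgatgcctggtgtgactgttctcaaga
Myom3: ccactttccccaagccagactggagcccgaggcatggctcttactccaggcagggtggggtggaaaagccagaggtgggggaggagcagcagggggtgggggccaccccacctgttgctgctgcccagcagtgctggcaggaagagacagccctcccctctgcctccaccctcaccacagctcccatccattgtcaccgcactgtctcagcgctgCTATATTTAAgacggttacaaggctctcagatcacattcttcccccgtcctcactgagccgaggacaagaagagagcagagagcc
Myom1: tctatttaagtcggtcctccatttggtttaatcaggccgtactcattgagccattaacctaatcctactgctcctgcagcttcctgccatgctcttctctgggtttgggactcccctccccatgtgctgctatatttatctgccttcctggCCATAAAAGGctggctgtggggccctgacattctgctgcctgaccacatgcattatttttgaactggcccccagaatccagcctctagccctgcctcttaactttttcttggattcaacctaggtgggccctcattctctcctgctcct
The windows are chr2:91117894-91118193 for Mybpc3, chr4:135759465-135759764 for Myom3 and chr17:71019307-71019606 for Myom1, all on the plus strand. Mybpc3 and Myom3 share the first 9 letters of the match and were the highest and the second lowest of the genes, at 798 and 0.36 TPM. Of the other motifs, CANNTG was in 7 of the 8 and in 72.3% of all promoters, GATAA in 3 and 25.4%, TATAAA in 1, Smyd1, and 13.6%, and CATTCC in 1, Mybpc2, and 14.7%. A MEF2 or CArG match can hold TATAAA, but no matches overlapped in the 8 windows. A match describes letters in the window and shows neither binding nor its absence.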

How the data were processed

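Each library had an authors' gene and transcript table from transcriptome alignments, and a transcript table quantified from reads. Per the deposited notes, the authors used mm10 and GENCODE M21. Programs and strand use in counting are not given in the sources used here, so overlapping genes with opposite directions stay uncertain. The deposited tables of the authors hold expected counts and, from reads, estimated counts, both of which need not be whole. The deposited tables also hold TPM and FPKM, per the file headers. The deposited posterior mean counts were printed for single transcripts, and the deposited posterior SD of the count is a number of its own in the same file. The reference is B6-based, so CAST reads could be lost in both libraries.

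Symbols, biotypes and coordinates came from GENCODE M21, and 86 of 55536 annotated genes without a row in the read-based tables were set to 0. ERCC controls and rows naming no gene were left out. Counts were rounded and scaled by TMM factors of 1.04 and 0.964 (edgeR 4.0.16), 0.5 was added, and exact 95% Clopper-Pearson intervals were computed (scipy 1.17.1). The code was checked on simulated counts drawn with counting error alone. That check does not cover the assignment of reads or further spread between libraries. Reads carried no molecular identifiers, so they are not separate molecules and the intervals and floors reflect counting alone. DESeq2 1.42.0 gave alternative size factors. All 9 genes were named, with set partners, the highest gene of each list, and transcripts that were dominant or held 10% on average. Exon inclusion was summed over annotated transcripts. Myom1-205, Obsl1-201, Mybpc3-201 and Gm44646, Gm15181, Unc45bos and Slfn5os were added after their values were seen. The genes and lists were chosen with earlier results of these data known. Proteins were not used here, and Myom2 had no promoter entry. Of the planned partner list, 1 gene is not reported here.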

Additional observations from a re-analysis of the deposited data

How the results depend on the processing

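No paired analysis was possible because there was 1 group. The number of genes detected stayed at 7 with minimums of 0.5 and 5 TPM, in FPKM, by reads, in TPM rescaled over nuclear protein-coding genes, and without either replicate. The count over 2-fold stayed at 0 under every scaling, pseudocount and count minimum tried, and by reads. Over all genes the share ran from 1.38% by reads to 3.98% with no minimum count. A count of 0 among so few genes is near these shares. The median level of the 9 genes was 69.3 TPM, against 77.5 TPM by reads, 56.2 in FPKM and 173 TPM rescaled over nuclear protein-coding genes, where mitochondrial and non-coding RNA leave the sum. The share of Myom1 in its family was 49.8% by reads. Of the 7 genes, those higher in replicate 1 by interval numbered 2 with total count, 1 with ERCC totals and 1 by reads, against 0. The share over all genes tested was 38.6%, 32% and 23.8%, against 20.6%. The log2 ratio of Unc45b turned to 0.042 with total count and to 0.0067 with ERCC totals. Its interval included 1 as a ratio under both of these, with DESeq2 size factors and by reads. The cause was not tested. Transcript shares of Myom1, Smyd1, Unc45b and Obsl1 differed between the quantifications, as given above, and those of Mybpc1 rest on at most 5 counts. Depth limits Myom3 and Mybpc1, with at most 31 counts by alignment.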
